A study of Homo sapiens with 28 samples.

Results

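The comparison described here sets U2OS cells that had spent 8 h in medium conditioned by p53 knockout (KO) U2OS cells against U2OS cells collected at the start of the assay (T0). Its members are 4 of the 28 libraries of the series, namely T0 A and B and KO DMSO medium A and B, and it covers the 13638 of 25807 listed gene symbols with a mean raw count of at least 20 over the 10 RNA libraries. U2OS is a human osteosarcoma line with functional p53, the transcription factor that halts the cell cycle or kills the cell after DNA damage. The recipient cells were labelled p53 WT in every RNA library, so the knockout belonged to the cells that conditioned the medium. The T0 cells were untreated. The donor cells of the KO DMSO medium carried the p53 knockout and were exposed to DMSO, the solvent control, per the titles, and were untreated per the treatment labels. The other groups of 2 libraries, used only where named, had medium from WT donors with DMSO (WT DMSO medium), or from WT or KO donors given 31.6 µM etoposide, a topoisomerase II poison (WT and KO etoposide medium). All cells were grown in high glucose DMEM with 10% serum. Cells kept 8 h in fresh medium were not analysed here, so the time, the change of medium and anything released by the donors cannot be told apart in the comparison with T0. The labels do not say whether libraries A and B were separate cultures, nor how many knockout clones were used, and the p-values therefore measure the spread between libraries, which may be technical.

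Conditioned medium carries what donor cells secrete and lacks what they have consumed. Recipient cells read such signals through growth factor receptors and the ERK kinase pathway, which switch on immediate early genes within minutes, and through NF-kB, a family of transcription factors held in the cytoplasm by inhibitors that are themselves NF-kB targets. Cells that secrete cytokines and EGF-family ligands can act on themselves, and medium renewal, amino acid supply, protein folding load and cell cycle position each have well known sets of responding genes. Mitotic genes are commonly read from promoters with CCAAT boxes and a cell cycle homology region (CHR), and heat shock genes from heat shock elements bound by HSF1.

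Library depth was even, with 16825669 to 20290764 counts in each of the 10 RNA libraries. The 2 KO DMSO medium libraries differed from each other more than any other replicate pair. The median absolute difference over genes was 0.156 on the log2 scale between KO DMSO medium A and B, against 0.0786 between the T0 libraries, 0.0985 between the WT DMSO medium libraries, 0.105 for WT etoposide medium and 0.107 for KO etoposide medium. Library A lay 0.120 and 0.115 from WT DMSO medium A and B, closer than to its own replicate, whereas library B lay 0.187 and 0.201 from them. On the first principal component, which held 49.9% of the variance, library B sat at -13.8 and library A at -26.1, with the T0 libraries at -13.5 and -13.2, the WT DMSO medium libraries at -31.1 and -30.4 and the 4 etoposide medium libraries between 22.8 and 41.6. The second component, with 27.1%, set both T0 libraries (39.1 each) apart from library B (-14.2), library A (-16.5) and the WT DMSO medium libraries (-13.8 and -15.7). On the third, with 8.89%, library B sat at -22.8 and library A at -1.42. Some results are therefore also given without library B, though not every count that changed without it. The part of this library's departure in a result was not tested.

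**Figure D1:**
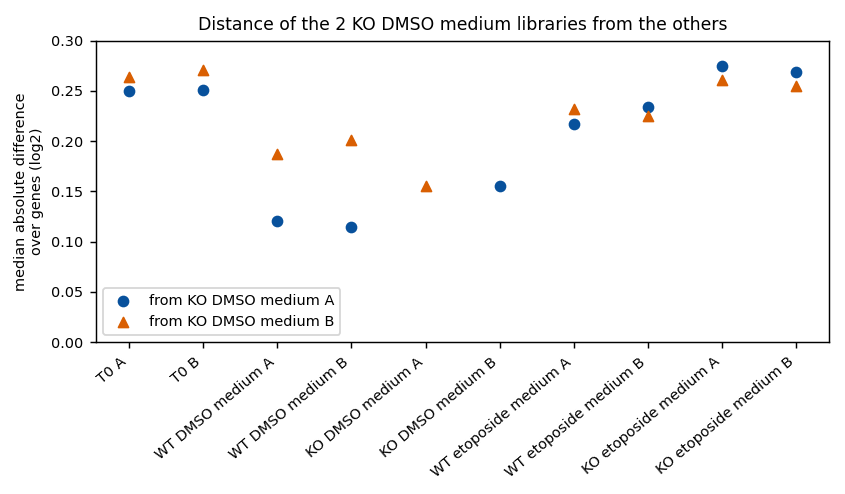
Median absolute log2 difference over all tested genes (y axis) between each KO DMSO medium library and every other RNA library (x axis); circles are distances from library A and triangles from library B. Library A is nearest to the WT DMSO medium libraries (0.120 and 0.115), and library B is nearest to library A (0.156).

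The labelled line was checked against 11 markers of mesenchymal and bone lineage cells. VIM, CDH2, COL1A1, RUNX2, ALPL, SPARC and FN1 were among those that passed the count filter, COL1A2 and SP7 did not, and TWIST1 had 0 counts in all 10 libraries. The 11 markers summed to 15500 to 15870 CPM (counts scaled to a common library size) at T0 and 16340 to 17640 CPM in KO DMSO medium. The summed level of 6 leukocyte markers ranged from 1.70 to 2.05 CPM at T0 and from 1.89 to 2.78 CPM in KO DMSO medium, and HBB and HBA1 of the erythroid markers had 0 counts in every library. The 4 endothelial markers summed to 2.54 to 2.97 CPM at T0 and 0.997 to 1.02 CPM in KO DMSO medium, led by VWF. The 5 epithelial markers, all of which passed the filter, summed to 17.5 to 20.0 CPM at T0 and 15.95 to 18.67 CPM in KO DMSO medium. The 3 neural markers, of which SNAP25 and SYT1 passed, summed to 9.55 to 10.2 CPM and 10.9 to 11.2 CPM.

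After 8 h in KO DMSO medium, 2653 genes were higher and 2868 lower than at T0, which is 19.5% and 21.0% of the genes tested and 40.5% in both directions (edgeR's quasi-likelihood test, Benjamini-Hochberg adjusted p under 0.05, termed called). Most changes were small. The median absolute log2 fold change of called genes was 0.463, and 3588 of the 5521 called genes changed by less than 1.5-fold. Large changes were mostly falls, with 518 called genes at least 2-fold lower and 109 at least 2-fold higher. Without KO DMSO medium B the count was 2552 higher and 2643 lower, and 4440 of the 5521 calls were shared. Without T0 A 3595 genes were called and without T0 B 3485. Tested against a change of 1.5-fold (edgeR's glmTreat), 103 genes were higher and 511 lower. For orientation, medium from WT donors with DMSO gave 2655 higher (19.5%) and 2637 lower (19.3%) genes against the same T0 libraries, which the comparisons share. Fitted with only the libraries compared, 6826 genes were called in WT DMSO medium and 4164 in KO DMSO medium. Side by side, the log2 fold changes over T0 in KO and WT DMSO medium were -5.91 and -5.87 for CXCL8, -3.03 and -2.99 for TNFAIP3, 1.81 and 1.65 for HSPA1A and 0.74 and 0.74 for PLK1.

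**Figure D2:**
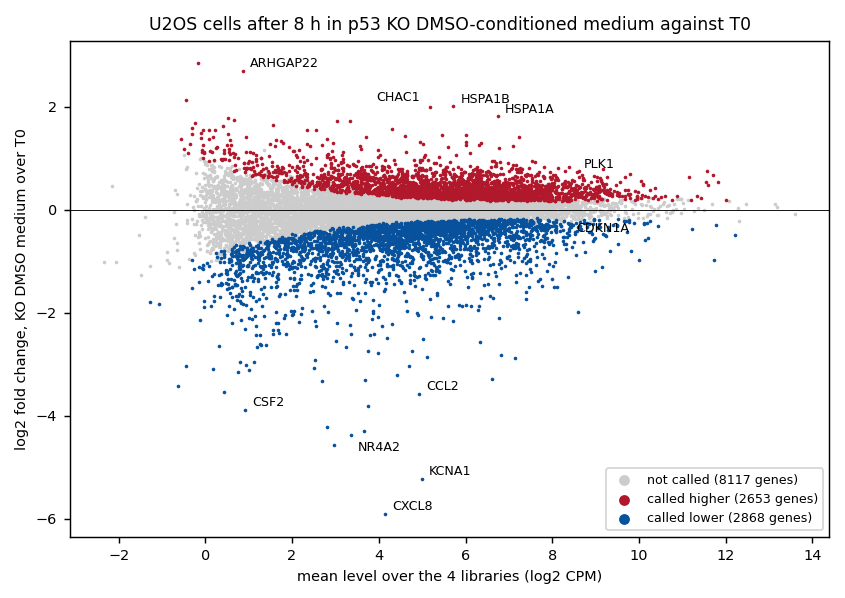
Log2 fold change of KO DMSO medium over T0 (y axis) against the mean level over the 4 libraries (x axis, log2 CPM), 1 point per gene; red points were called higher (2653), blue points called lower (2868) and grey points not called. The longest arm points down, to CXCL8 at -5.91 and KCNA1 at -5.22, and the highest labelled points are ARHGAP22 at 2.70 and HSPA1B at 2.01.

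Most measured cytokine genes were lower after 8 h. Of 28 listed chemokines, interleukins and related genes, 14 passed the count filter, and 12 of these were called lower and 1 higher, with a median log2 fold change of -2.29 against -0.01 over all tested genes. The higher member was IL32, at 0.35, and IL1A, at -1.02, was not called; both were picked out after their values were seen. Without KO DMSO medium A the count was 12 lower and 0 higher, and without B it was again 12 lower and 1 higher; without either T0 library 0 were higher. CXCL8, the neutrophil chemokine interleukin-8, stood at 35.0 and 34.3 CPM in the T0 libraries and at 0.578 and 0.563 CPM in KO DMSO medium A and B, a log2 fold change of -5.91 ± 0.17 (SE, adjusted p = 3.62e-13). CCL2, the monocyte chemokine, went from 57.6 and 54.6 to 3.68 and 5.68 CPM (-3.58 ± 0.14, adjusted p = 2.18e-11). CSF2, the growth factor GM-CSF, went from 3.45 and 3.62 to 0.210 and 0.256 CPM (-3.88 ± 0.35, adjusted p = 2.74e-07). In all of these the T0 and KO DMSO medium libraries did not overlap. The KO DMSO medium levels of CSF2 rest on few counts, so the size of its fall is uncertain. CX3CL1, the membrane-bound chemokine fractalkine, fell from 65.7 and 55.2 to 8.98 and 7.78 CPM. IL11, a gp130 cytokine, fell from 59.5 and 51.1 to 8.51 and 11.0 CPM, and LIF, of the same cytokine family, fell from 407 and 403 to 141 and 146 CPM. CCL3, another chemokine, was listed at 2.33 and 2.65 CPM at T0 and at 0.368 and 0.0512 CPM after 8 h, levels too near single counts for a ratio to be given.

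The promoter of CXCL8 is shown because the gene fell furthest and its upstream 250 bases hold an AP-1 site. The sequence is RefSeq's, build GRCh38.p14, plus strand of chr4:73740319-73740568, and the capitals mark the AP-1 match TGACTCA.
CXCL8: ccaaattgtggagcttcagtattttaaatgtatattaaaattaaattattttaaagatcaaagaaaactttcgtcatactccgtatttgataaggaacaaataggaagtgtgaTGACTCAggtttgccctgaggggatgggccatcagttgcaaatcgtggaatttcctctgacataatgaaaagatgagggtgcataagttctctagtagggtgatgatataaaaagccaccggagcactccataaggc
The match lay at bases -137 to -131 before the gene start. The letters TGACTCA, searched on both strands, were found in the promoter window of 3 of the 10 tested cytokine-list genes with a RefSeq window, and in 279 of the 10070 tested genes with one, 2.77%. A match is a description of the letters only.

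NF-kB subunits, inhibitors and targets fell beside the cytokines. Of 20 listed genes, 19 passed the filter, with 14 called lower, 3 higher and a median log2 fold change of -1.26. Among the subunits 4 of 5 were lower, and among the feedback genes 7 of 9. BIRC3, an inhibitor of apoptosis and a classical NF-kB target, fell from 24.1 and 26.3 to 1.37 and 2.20 CPM (-3.81 ± 0.18, adjusted p = 8.32e-11). TNFAIP3, the deubiquitinase A20 that shuts NF-kB signalling down, fell from 46.9 and 45.6 to 4.31 and 6.96 CPM (-3.03 ± 0.16, adjusted p = 2.92e-10). TRAF1, a TNF receptor adaptor, fell from 23.3 in both T0 libraries to 2.52 and 4.45 CPM, and NFKBIA, the inhibitor IkB-alpha, from 99.3 and 104 to 41.8 and 39.8 CPM. The higher members were the subunit RELA (0.20), the inhibitor NFKBIB (0.39) and TNIP1 (0.37), a partner of A20, all picked out after their values were seen and all below 1.5-fold. With library B left out, 15 members were lower and 2 higher. Interferon-stimulated genes were measured in part, 22 of 38, of which 12 were lower and 0 higher; with DESeq2 8 were lower, and without T0 A and B 6 and 7 were. IRF1, an interferon-induced transcription factor, fell from 24.9 and 25.7 to 8.72 and 11.2 CPM.

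Immediate early transcription factors were lower almost throughout. Of 25 listed, 23 passed the filter, 21 were called lower and 0 higher, with a median log2 fold change of -1.01; JUN (-0.08) and IER5L (-0.03), named after their values were seen, were not called. The count of lower genes was 22 without library B and 19 without library A. The 3 NR4A orphan nuclear receptors fell most. NR4A2 stood at 20.6 and 18.5 CPM at T0 and at 1.26 and 0.614 CPM in KO DMSO medium (-4.38 ± 0.25, adjusted p = 1.27e-09). NR4A3 went from 26.2 and 21.7 to 1.10 and 1.33 CPM, and NR4A1 from 253 and 243 to 37.2 and 30.2 CPM. All 9 AP-1 members but JUN were lower, among them FOS, from 25.2 and 29.7 to 4.89 and 3.07 CPM, and JUNB, from 184 and 169 to 40.3 and 41.5 CPM. EGR2, a zinc finger factor induced by serum, fell from 4.30 and 4.76 to 0.788 and 0.665 CPM. EGR1, its relative and the classic serum-response gene, stood at 110 and 116 CPM at T0 and 69.0 and 47.6 CPM after 8 h (-0.96 ± 0.25, adjusted p = 0.00575).

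Ligands and feedback genes of the ERK pathway fell as well. Of 28 listed, 23 passed the filter, 1 of them with a mean count under 20 outside T0, and 16 were lower and 0 higher, with a median log2 fold change of -0.88. Leaving out library B gave 19 lower and 0 higher; without A 15 were lower and 2 higher. Over the same T0 libraries, WT DMSO medium had 20 of the 23 lower and 0 higher, with a median of -1.53. Between the DMSO media 6 of the 23 were higher and 0 lower in KO, against 0.711% higher of all tested genes. The number of calls in that contrast rested on single libraries, as given below. All 4 tested EGF-family ligands were lower in KO DMSO medium than at T0. HBEGF, which binds the EGF receptor, fell from 206 and 190 to 25.1 and 30.6 CPM (-2.83 ± 0.09, adjusted p = 9.49e-13). EREG, epiregulin, fell from 3.02 and 3.08 to 0.158 and 0.512 CPM, with a log2 fold change of -3.16 with both libraries and -4.22 without library B. Its KO DMSO medium levels rest on few counts, so both sizes are uncertain. ERRFI1, which inhibits the EGF receptor from inside the cell, fell from 131 and 119 to 35.7 and 40.4 CPM. MYC fell less, from 422 and 423 to 268 and 355 CPM (-0.44 ± 0.10, adjusted p = 0.00253), by -0.23 without library A and -0.65 without library B.

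**Figure D3:**
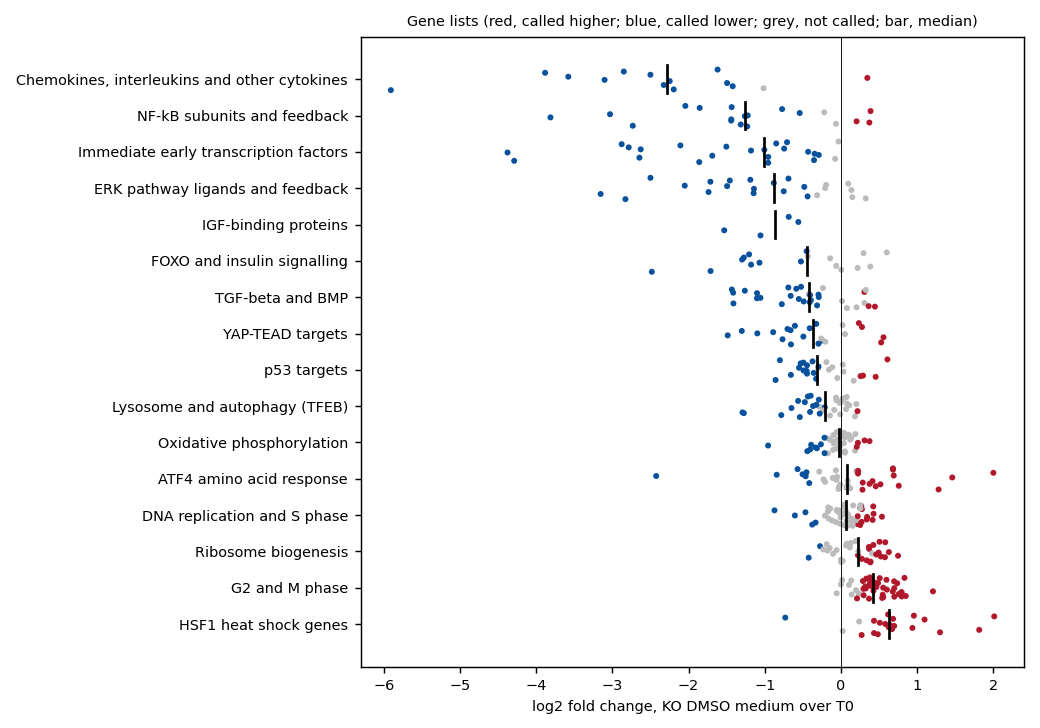
Log2 fold change of KO DMSO medium over T0 (x axis) for the tested members of 16 gene lists (y axis); points are genes, red called higher, blue called lower, grey not called, and the black bar is the list's median. The cytokine median lies at -2.29 and the NF-kB median at -1.26, while the G2 and M phase median lies at 0.42 and the heat shock median at 0.63.

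Other extracellular signalling lists had more falls than rises. In the TGF-beta and BMP list 20 of 30 tested genes were lower and 3 higher, with a median of -0.42; 1 was higher without T0 B. INHBA, a subunit of activin, fell from 132 and 136 to 44.0 and 55.5 CPM. ID4, which blocks DNA binding by helix-loop-helix factors, fell from 20.3 and 19.9 to 8.67 and 6.45 CPM. In the YAP-TEAD list 14 of 22 were lower and 4 higher; 14 were lower and 2 higher without KO DMSO medium B, and 12 and 2 without either T0 library. WWTR1, a coactivator that binds TEAD factors, fell from 74.7 and 73.5 to 28.5 and 40.6 CPM, and CYR61, a matricellular protein, from 898 and 890 to 539 and 595 CPM. In the list of SRF-MRTF cytoskeletal targets 9 of 16 were lower and 2 higher (0 higher without KO DMSO medium B or T0 B, 1 without T0 A), including VCL, vinculin, from 431 and 441 to 281 and 286 CPM. All 4 tested of the 8 IGF-binding proteins and related genes were lower, IGFBP7 by -1.53 ± 0.10 and IGFBP5 by -1.06 ± 0.14 on the log2 scale. LFNG, which modifies Notch receptors, fell from 321 and 324 to 120 and 110 CPM, and LEF1, a Wnt pathway transcription factor, from 52.0 and 52.9 to 19.6 and 30.3 CPM.

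Of the FOXO and insulin signalling list, 8 of 17 genes were not called. Of the 17 tested, 9 were lower and 0 higher; without KO DMSO medium B 3 were higher and 9 lower. FOXO1, a transcription factor restrained by insulin signalling, fell from 30.2 and 31.9 to 5.83 and 5.27 CPM (-2.48 ± 0.14, adjusted p = 1.19e-09). CITED2, a transcriptional coregulator, fell from 333 and 322 to 168 and 121 CPM. GABARAPL1, which takes part in autophagosome formation, fell from 39.8 and 39.9 to 20.5 and 12.4 CPM. Of the lysosome and autophagy list 15 of 33 were lower and 1 higher (2 higher without KO DMSO medium B, 0 without either T0 library), with GPNMB from 38.8 and 42.5 to 19.3 and 13.9 CPM and CTSB, the protease cathepsin B, from 611 and 579 to 396 and 410 CPM. Of 8 tested glucocorticoid receptor targets 7 were lower and 1 higher; the higher gene was TSC22D3, from 5.94 and 5.78 to 11.1 and 10.4 CPM, and CEBPD, a transcription factor, fell from 24.1 and 22.2 to 4.94 and 5.73 CPM.

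The largest falls outside the lists included genes with very different tissue roles. KCNA1, a voltage-gated potassium channel, stood at 61.7 and 62.5 CPM at T0 and at 1.52 and 1.79 CPM in KO DMSO medium (-5.22 ± 0.15, adjusted p = 3.62e-13). EPPK1, epiplakin, went from 14.6 and 15.4 to 0.683 and 0.563 CPM. XIRP1, an actin-binding protein of muscle, went from 12.5 and 13.9 to 0.578 and 0.819 CPM. LBH, a transcriptional cofactor, was much more abundant at T0 and fell from 174 and 180 to 21.2 and 14.9 CPM (-3.29 ± 0.11, adjusted p = 1.99e-12). PDGFB, a growth factor for mesenchymal cells, fell from 12.2 and 11.3 to 1.47 and 0.870 CPM. RGS4, a brake on G protein signalling, fell from 23.8 and 23.0 to 1.16 and 3.53 CPM, by -3.31 with both libraries and -4.33 without library B. In each of these genes both T0 libraries lay above both KO DMSO medium libraries.

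Heat shock genes were called higher in most cases. Of 22 listed, 21 passed the filter, 18 were called higher and 1 lower, with a median log2 fold change of 0.63; CRYAB, a small heat shock protein, was the lower member at -0.73, and HSPB1 (0.02) and HSF2 (0.24) were not called, these 3 being named after their values were seen. Without KO DMSO medium B 17 were higher, and without A 18. HSPA1A, an inducible HSP70, stood at 45.9 and 49.3 CPM at T0 and at 166 and 169 CPM in KO DMSO medium (1.81 ± 0.08, adjusted p = 3.10e-11). HSPA1B, its near-identical neighbour, went from 20.5 and 21.5 to 79.7 and 89.3 CPM (2.01 ± 0.09, adjusted p = 5.38e-11). Reads of the 2 genes are hard to assign to either, so their separate values are uncertain. HSPH1, an HSP70 nucleotide exchange factor, rose from 135 and 133 to 249 and 263 CPM, and CHORDC1, an HSP90 cochaperone, from 47.7 and 47.3 to 120 and 114 CPM. In each of these genes both KO DMSO medium libraries lay above both T0 libraries.

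The upstream sequences of HSPA1A and HSPA1B are shown because these genes rose most in the group and share their upstream region. Both are from RefSeq, build GRCh38.p14, plus strand, at chr6:31815293-31815542 and chr6:31827488-31827737, and the capitals mark a heat shock element of the form GAANNTTC.
HSPA1A: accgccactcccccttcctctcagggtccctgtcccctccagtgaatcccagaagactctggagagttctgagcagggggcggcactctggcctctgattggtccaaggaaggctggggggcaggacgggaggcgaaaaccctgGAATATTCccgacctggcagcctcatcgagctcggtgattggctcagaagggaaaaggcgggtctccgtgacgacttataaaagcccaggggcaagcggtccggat
HSPA1B: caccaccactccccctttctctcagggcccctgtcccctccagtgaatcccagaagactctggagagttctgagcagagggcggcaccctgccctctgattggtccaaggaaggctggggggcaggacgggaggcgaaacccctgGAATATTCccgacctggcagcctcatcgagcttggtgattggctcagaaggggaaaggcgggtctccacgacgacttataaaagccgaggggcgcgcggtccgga
Shifted by 1 base, 235 of 249 bases were identical, 94.4%. The element lay at bases -106 to -99 of HSPA1A and -105 to -98 of HSPA1B. GAANNTTC, which reads the same on both strands, was found in 7 of the 18 tested heat shock genes with a RefSeq window, 38.9%, and in 401 of the 10070 tested genes with one, 3.98%. It was also found in 2 of 10 cytokine, 3 of 17 immediate early, 1 of 17 NF-kB and 3 of 39 G2 and M windows. The other orientation, TTCNNGAA, was found in 3 of 18 and in 5.03% of all windows. These 2 forms were added to the motif list after the heat shock values had been seen.

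Genes of the G2 and M phases were mostly higher, by less than 1.5-fold at the median. All 46 listed genes passed the filter; 38 were called higher and 0 lower, with a median log2 fold change of 0.42. Without KO DMSO medium B 40 were higher, and without A 38, with 0 lower each time. Among the kinases and cyclins, PLK1, the mitotic polo-like kinase, stood at 292 and 278 CPM at T0 and at 500 and 449 CPM in KO DMSO medium (0.74 ± 0.08, adjusted p = 3.23e-06). CDC20, the activator of the anaphase-promoting complex, rose from 430 and 414 to 712 and 753 CPM (0.80 ± 0.07, adjusted p = 1.64e-07). CENPE, a kinetochore motor, rose from 49.9 and 48.8 to 94.2 and 83.6 CPM, and PSRC1, a spindle protein, from 65.7 and 65.8 to 150 and 153 CPM (1.21 ± 0.09, adjusted p = 3.78e-08). Among the 8 that were not called were CDK1 (0.02), the kinase that drives entry into mitosis, and MKI67 (0.14), a coat protein of mitotic chromosomes. PLK1, CDK1 and MKI67 were named after their values were seen. Of the genes of DNA replication and S phase 13 of 52 were higher and 5 lower, with a median of 0.07, and 8 and 7 were higher without T0 A and B; RRM2, the ribonucleotide reductase subunit, fell from 423 and 430 to 304 and 314 CPM, and TK1, thymidine kinase, from 260 and 245 to 161 and 171 CPM. In bulk RNA, more cells in a phase and more RNA per cell cannot be told apart.

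Promoters of PLK1, CDC20 and CCNB1 are shown because they hold CCAAT boxes and, in PLK1 and CDC20, CHR letters, both known from mitotic promoters. They are RefSeq windows of GRCh38.p14, all on the plus strand, at chr16:23678639-23678888, chr1:43358731-43358980 and chr5:69166900-69167149; capitals mark CCAAT and the CHR letters TTTGAA, or its reverse complement.
PLK1: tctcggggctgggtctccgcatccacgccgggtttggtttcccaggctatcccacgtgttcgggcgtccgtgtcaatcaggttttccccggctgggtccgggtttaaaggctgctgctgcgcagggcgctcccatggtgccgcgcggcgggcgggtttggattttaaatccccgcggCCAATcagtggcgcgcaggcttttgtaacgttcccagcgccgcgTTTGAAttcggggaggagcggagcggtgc
CDC20: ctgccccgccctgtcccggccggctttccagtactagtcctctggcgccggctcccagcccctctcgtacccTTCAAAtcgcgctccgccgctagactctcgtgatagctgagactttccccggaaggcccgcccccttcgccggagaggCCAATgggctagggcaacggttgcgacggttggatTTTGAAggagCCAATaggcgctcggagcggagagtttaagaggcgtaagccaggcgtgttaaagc
CCNB1: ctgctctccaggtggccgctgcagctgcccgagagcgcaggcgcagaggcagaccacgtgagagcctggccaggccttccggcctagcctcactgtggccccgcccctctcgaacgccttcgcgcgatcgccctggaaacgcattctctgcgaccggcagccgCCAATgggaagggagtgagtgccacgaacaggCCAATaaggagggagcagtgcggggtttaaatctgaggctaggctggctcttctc
PLK1 had its CCAAT at bases -73 to -69 and its CHR at -29 to -24. CDC20 had CCAAT at -100 to -96 and -55 to -51, and CHR letters at -178 to -173 and -65 to -60. CCNB1 had CCAAT at -87 to -83 and -55 to -51 and no TTTGAA in this window, which says only that these letters are not there. Searched on both strands, TTTGAA occurred in 21 of the 39 tested G2 and M genes with a RefSeq window, 53.8%, against 814 of 10070 tested genes, 8.08%. CCAAT occurred in 30 of 39, 76.9%, against 3489 of 10070, 34.6%. The E2F letters TTTGGCGC were found in 1 of the 39 windows.

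Amino acid response genes under the factor ATF4 moved both ways. Of 38 tested, 15 were higher and 7 lower, with a median of 0.08. CHAC1, an enzyme that degrades glutathione, rose from 14.2 and 14.8 to 62.2 and 53.7 CPM (adjusted p = 8.32e-11). DDIT4, an inhibitor of mTORC1, rose from 23.0 and 23.8 to 70.8 and 58.2 CPM (1.46 ± 0.10, adjusted p = 6.79e-09), and SESN2, another mTORC1 inhibitor, from 72.3 and 63.9 to 121 and 109 CPM. GDF15, a stress cytokine, went the other way, from 3.98 and 4.16 to 0.893 and 0.614 CPM (-2.43 ± 0.23, adjusted p = 5.12e-07). FGF21, a stress hormone, stood at 1.70 and 1.57 CPM at T0 and at 6.04 and 1.94 CPM in KO DMSO medium; its log2 fold change was 1.28 with both libraries, 1.89 without library B and 0.27 without library A, the last not called; it was not called either when a T0 library was left out (adjusted p = 0.0600 and 0.0830). Of the 20 cytosolic tRNA synthetases 9 were higher and 1 lower, such as AARS from 137 and 141 to 180 and 177 CPM; with either T0 library left out 4 were higher and 0 lower.

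Ribosome biogenesis leaned upward, and more so in library B. Of 35 tested, 16 were higher and 2 lower with a median of 0.23; without KO DMSO medium A the count was 23 higher and 0 lower, and without B it was 13 higher and 6 lower. TCOF1, the treacle protein of rDNA transcription, stood at 298 and 285 CPM at T0 and at 455 and 523 CPM in KO DMSO medium (0.75 ± 0.08, adjusted p = 1.94e-06). NOLC1, a nucleolar phosphoprotein, rose from 200 and 198 to 249 and 317 CPM, with the higher value in library B (0.51 with both libraries and 0.32 without B). Of 8 tested polyamine genes 4 were higher and 3 lower. SRM, spermidine synthase, rose from 394 and 374 to 546 and 576 CPM, and SMS (0.36), ODC1 (0.31) and OAZ2 (0.26) were higher too. SAT1, which acetylates polyamines for export, fell from 5.89 and 6.32 to 3.41 and 2.97 CPM, and AMD1 (-0.61) and AZIN1 (-0.33) were lower too. Of 79 cytosolic ribosomal protein genes 9 were higher and 19 lower. Higher were 14 without library A and 4 without T0 B, and 8 were lower without T0 A. The list included RPL26 at -1.35 and RPS2 at -0.98, both with many processed copies in the genome, so that the assignment of their reads is uncertain.

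Metabolic lists were mixed. Of all tested genes 19.5% were higher and 21.0% lower. The cholesterol and glycolysis counts below, and the lower count of oxidative phosphorylation, lay near these shares. Of 27 tested glycolysis genes 7 were higher and 5 lower, with SLC2A3, the glucose transporter GLUT3, down from 50.8 and 51.5 to 20.3 and 25.3 CPM (-1.16 ± 0.10, adjusted p = 1.20e-07); without T0 A and B 3 and 2 were higher. Of 21 hypoxia targets and regulators 8 were lower and 2 higher (4 higher without KO DMSO medium B and 1 without T0 A), including EPAS1, the factor HIF-2-alpha, from 54.2 and 56.8 to 21.5 and 27.3 CPM. Cholesterol genes were split, 5 higher and 6 lower of 28 (8 higher without KO DMSO medium B), with the synthase HMGCS1 from 157 and 152 to 93.5 and 94.8 CPM. Of 41 oxidative phosphorylation genes 4 were higher and 9 lower, with 2 higher without KO DMSO medium B, 2 higher and 4 lower without T0 A, and 1 higher and 5 lower without T0 B. Of 22 NRF2 genes 2 were higher and 7 lower (5 higher without KO DMSO medium B), with TXNRD1, thioredoxin reductase, from 236 and 248 to 153 and 155 CPM. Of 29 tested matrix, protease and inhibitor genes 2 were higher and 15 lower, with a median of -0.296. Among the higher was MMP9, a gelatinase, from 44.3 and 50.2 to 107 and 118 CPM. MMP14, another protease of that list, was lower (-0.72). Of 8 tested bone lineage genes 2 were higher and 3 lower. ALPL, the bone alkaline phosphatase, rose from 21.0 and 22.5 to 38.3 and 50.3 CPM, and RUNX2 was the other higher member. SPP1, TNFRSF11B and MSX2 were the lower members.

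Targets of p53 were measured in the recipient cells, whose own p53 was labelled WT. CDKN1A, the cell cycle inhibitor p21 and a p53 target, fell from 384 and 401 to 314 and 244 CPM (-0.49 ± 0.09, adjusted p = 4.71e-04), by 0.67 without library A and by 0.32 without library B. MDM2, the ligase that degrades p53, stood at 57.3 and 61.9 CPM and then at 56.5 and 53.5 CPM, and was not called (-0.12 ± 0.08, adjusted p = 0.251). Of 26 tested p53 targets and regulators 14 were lower and 4 higher, with a median of -0.31; 2 were higher without T0 A. FAS, the death receptor, fell from 24.4 and 23.2 to 13.4 and 12.8 CPM, whereas POLH, a translesion polymerase, rose from 59.6 and 60.9 to 97.2 and 86.6 CPM.

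**Figure D4:**
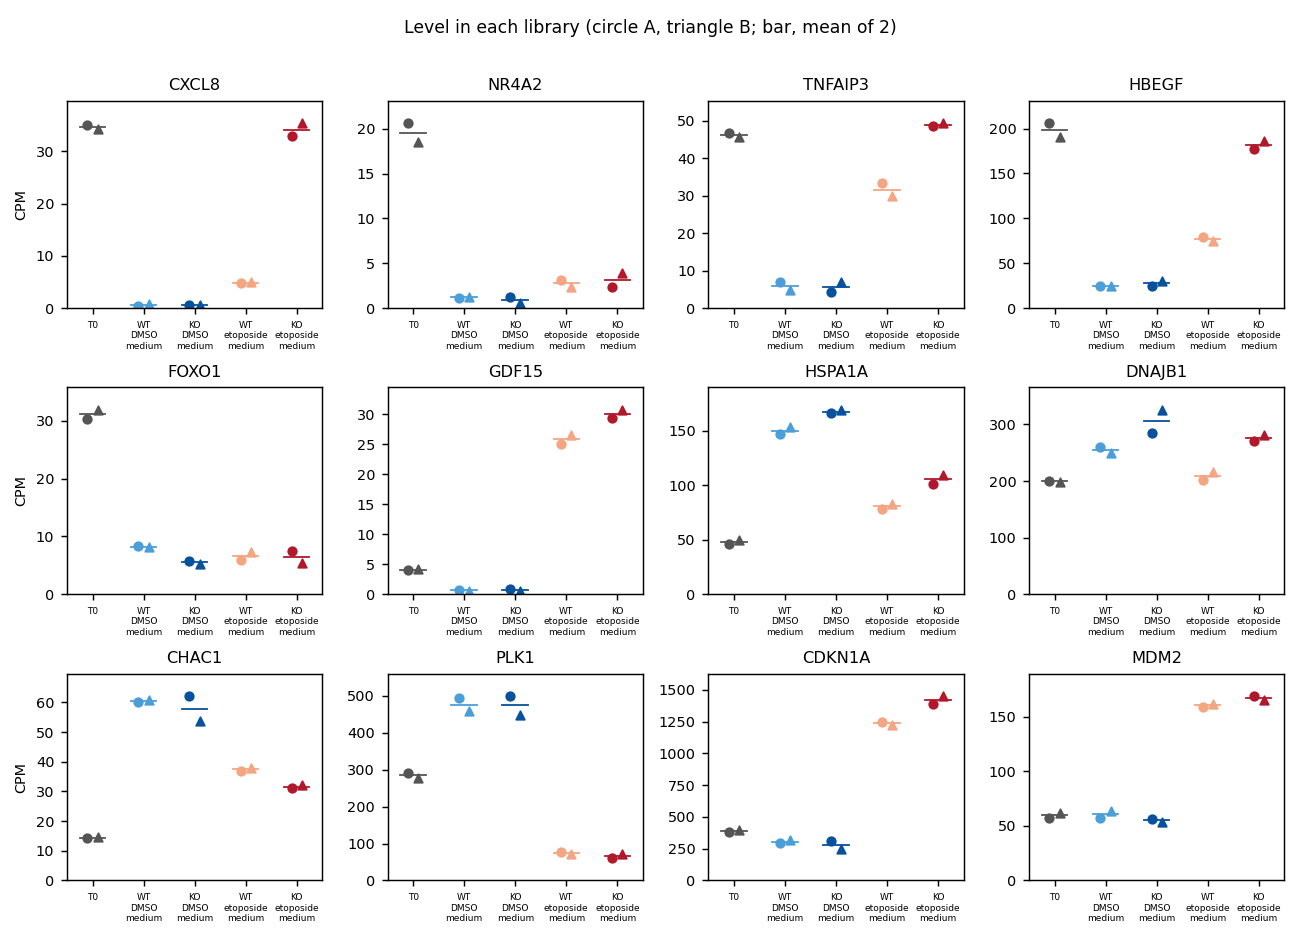
CPM (y axis, from 0) of 12 genes in every RNA library by group (x axis); circles are library A, triangles library B and bars the mean of 2. CXCL8 lies at 35.0 and 34.3 CPM at T0 and under 1 CPM in both DMSO media, while HSPA1A rises from 45.9 and 49.3 CPM to 166 and 169 CPM in KO DMSO medium.

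The donors' p53 status was examined by comparing KO DMSO medium with WT DMSO medium, a contrast from which T0 is absent. It called 207 genes, 1.52% of those tested, 97 higher (0.711%) and 110 lower (0.807%) in KO DMSO medium. With total-count scaling 83 were higher and 190 lower, and with DESeq2 240 were higher and 144 lower. The count rested on single libraries: 11 genes were called without KO DMSO medium B, 3100 without A, and 0 when either WT DMSO medium library was left out, where 2004 and 1911 genes had an unadjusted p under 0.05 in edgeR's test. FOS stood at 17.0 and 13.4 CPM in WT DMSO medium and at 4.89 and 3.07 CPM in KO DMSO medium (-1.93, adjusted p = 0.0295). FOSB, its relative, stood at 2.40 and 2.63 against 0.525 and 0.921 CPM, and EGR1 at 213 and 175 against 69.0 and 47.6 CPM. For these 3 genes the 2 media did not overlap, and without library B the log2 fold changes were -1.62, -2.23 and -1.48. With a library left out, its group has no spread of its own, and the test takes its spread from the other groups. EGR1 was above its T0 level in WT DMSO medium (0.78, adjusted p = 0.0154) and below it in KO DMSO medium.

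The higher genes named here differed between libraries A and B of KO DMSO medium. Among the calls left without library B, 7 were higher and 4 lower in KO DMSO medium. ESM1, an endothelial-type proteoglycan, stood at 0.409 and 0.658 CPM in WT DMSO medium and at 1.05 and 5.99 CPM in KO DMSO medium A and B. KRTAP2-3, a keratin-associated protein, stood at 36.1 and 33.0 CPM against 59.6 and 176 CPM, and at 581 and 627 CPM in KO etoposide medium. ZNF792, a zinc finger gene, stood at 3.68 and 3.14 against 4.47 and 11.3 CPM, and at 23.8 and 22.1 CPM in KO etoposide medium. In each of them library B was higher than library A in the direction of the KO etoposide medium level. Without library B the log2 fold changes over WT DMSO medium were 0.98 for ESM1, 0.80 for KRTAP2-3 and 0.40 for ZNF792. Each was smaller than with both libraries. Against T0, KRTAP2-3 was called lower in KO DMSO medium (-0.89, adjusted p = 0.0189 by edgeR's test), by -1.87 without library B and -0.29 without A. In the same test against T0, ESM1 (1.16, adjusted p = 0.0710) and ZNF792 (0.03, adjusted p = 0.935) were not called. Without library B the change of ESM1 from T0 was -0.58. ARHGAP22, a RhoGAP and the largest rise over T0 by the naming rule, stood at 0.637 and 0.324 CPM at T0 and at 2.05 and 4.25 CPM in KO DMSO medium. It rose by 2.70 with both libraries and 2.08 without library B. Its T0 levels rest on few counts, so the size of the rise is uncertain.

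**Figure D5:**
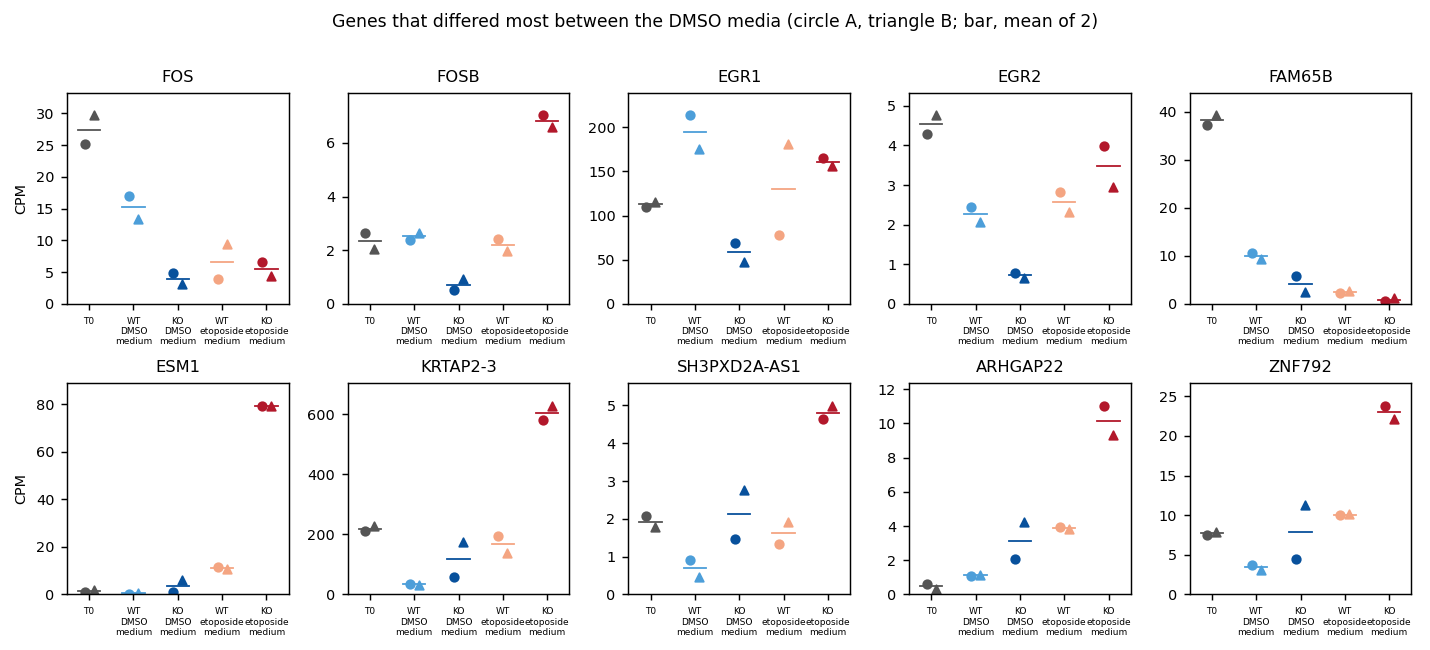
CPM (y axis, from 0) by group (x axis) of the 5 lowest and 5 highest genes called in KO against WT DMSO medium; circles are library A, triangles library B and bars the mean of 2. FOS, FOSB, EGR1 and EGR2 are lower in both KO DMSO medium libraries, while ESM1 (1.05 and 5.99 CPM) and KRTAP2-3 (59.6 and 176 CPM) are higher mainly in library B.

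Some genes that fell from T0, chosen after their values were seen, are given with their levels in KO etoposide medium, which shares the KO DMSO medium libraries. KO etoposide medium against KO DMSO medium called 5547 genes, 40.7% of those tested, 2784 higher (20.4%) and 2763 lower (20.3%). CXCL8 stood at 32.9 and 35.3 CPM in KO etoposide medium, against 35.0 and 34.3 at T0 and 0.578 and 0.563 in KO DMSO medium. TNFAIP3 stood at 48.7 and 49.3 CPM and HBEGF at 178 and 186 CPM, each near its T0 values. KCNA1, at 2.04 and 1.56 CPM, and FOXO1, at 7.43 and 5.45 CPM, were not called between these media (adjusted p = 0.721 and 0.320). Of the G2 and M list all 46 genes were lower in KO etoposide than in KO DMSO medium, with a median of -1.26. PLK1 stood at 61.2 and 72.6 CPM there, below its T0 level. HSPA1A stood at 101 and 109 CPM, between its T0 and KO DMSO medium levels.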

How the data were processed

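RNA was read from 10 libraries of recipient U2OS cells, 2 for each of 5 groups. The deposited table gives raw counts per gene symbol, made by the authors; hg19 and DESeq2 are named per the submitters' processing notes, while for the aligner, counter, annotation and strand setting the entry is: not given in the sources used here. Symbols listed with their final number set off as a decimal were restored for 50 rows. Genes with a mean count of at least 20 over the 10 libraries were fitted with edgeR 4.0.16 in R 4.3.3 (TMM scaling, glmQLFit and glmQLFTest, all 10 libraries in one fit), with Benjamini-Hochberg adjusted p under 0.05 as the threshold. Levels are CPM on TMM-scaled library sizes, and the SE is the absolute log2 fold change over the square root of F. Depth was 16825669 to 20290764 counts per library. The fit was tested on simulated counts. Members, gene lists and motifs were chosen with earlier results of these data known. Named genes were the 15 highest and 15 lowest log2 fold changes of called genes that averaged 1 CPM or more in the 4 libraries and whose groups did not overlap; in each list the 4 members with the smallest p, or every measured member where 12 or fewer were measured; the 5 highest and 5 lowest called genes, under the same conditions, in KO against WT DMSO medium and in KO etoposide against KO DMSO medium; and CDKN1A and MDM2. Some genes that this rule names are not reported here. Line markers, and genes whose promoters are printed, were named besides. Promoters are RefSeq windows of GRCh38.p14, available for 10070 tested genes, and no coordinates of hg19 were used. Alternatives covered scaling, count filter, DESeq2 1.42.0, a 1.5-fold test, the libraries fitted, a replicate block and each library left out.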

Additional observations from a re-analysis of the deposited data

Results flagged for a closer look

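The following genes differed between the effects of KO and WT DMSO medium, by edgeR's quasi-likelihood test of the difference (KO minus WT DMSO medium, log2, adjusted p over all 13638 genes). Lower in KO DMSO medium were FOS at -1.93 (adjusted p = 0.0295), FOSB at -1.79 (0.0325), EGR1 at -1.74 (0.0295), EGR2 at -1.63 (0.0325) and FAM65B at -1.27 (0.0325). Higher were ESM1 at 2.72 (adjusted p = 0.0446), KRTAP2-3 at 1.77 (0.0325), SH3PXD2A-AS1 at 1.62 (0.0446), ARHGAP22 at 1.49 (0.0405) and ZNF792 at 1.21 (0.0487). None of the 10 was called when either WT DMSO medium library was left out. Without KO DMSO medium B the differences were -1.62 for FOS, -2.23 for FOSB, -1.48 for EGR1, -1.50 for EGR2 and -0.75 for FAM65B. The higher genes then stood at 0.98 for ESM1, 0.80 for KRTAP2-3, 1.10 for SH3PXD2A-AS1, 0.88 for ARHGAP22 and 0.40 for ZNF792. All but FOSB were smaller than with both libraries.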

How the results depend on the processing

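Against T0, the 5521 calls became 5517 with RLE, 5500 with upper-quartile and 5456 with total-count scaling (2244 higher, 3212 lower), 5855 without a count filter, 4334 at a mean count of at least 200, 4624 with DESeq2 and 4164 with only the libraries compared. Tested against 1.5-fold (glmTreat), 614 were called, 103 higher and 511 lower. Leaving out each library gave 3485 to 5713 calls, 1585 to 2866 higher and 1881 to 2847 lower, with 0 calls of opposite direction. ZNF792 turned from 0.03, not called, to -0.78 (adjusted p = 0.00119) without KO DMSO medium B and to 0.56 (adjusted p = 0.00344) without A. WT DMSO medium against T0 gave 655 calls with glmTreat and 3514 to 3845 with a library left out, and KO etoposide against KO DMSO medium gave 988 with glmTreat. KO against WT DMSO medium, 207 calls, gave 1186 without a count filter, 39 at a mean count of at least 200, 384 with DESeq2 (240 higher, 144 lower), 273 with total-count scaling (83 higher, 190 lower), 1 with only the libraries compared and 0 with glmTreat, where 91 genes had an unadjusted p under 0.05. Leaving out each library gave 0 to 3100 calls. The cause was not tested. The letters A and B were not taken to pair the libraries, since the deviations of same-lettered libraries correlated over 0.1 in 1 of 10 pairs of groups (-0.05 to 0.15 in all). With the replicate block 5490 genes were called against T0 and 349 between the DMSO media. With 2 libraries a group, precision rests on the spread shared over all 10 libraries. A group with a library left out adds nothing to that spread.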
